A study of Mus musculus with 2 samples.

Results

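The 721 accessible regions described here lie where the ends of neighbouring genes come close together, in prostate tumor cells of C57BL/6 mice profiled by ATAC-seq, an assay in which a transposase cuts and tags open DNA. M6 cells had been treated with tamoxifen for 6 months and stand for the late stage of progression to neuroendocrine prostate cancer (NEPC), and W2 cells had been treated for 2 weeks and stand for the early stage. With a single library at each time point (1 for M6, 1 for W2), differences between them rest on no replicates and are not tested, and every interval covers counting error only. The sources used here name neither the alleles that tamoxifen acts on in these cells nor the number of animals, nor whether cells were cultured.

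The regions were chosen by the positions of the called peaks in both lists. A W2 peak was taken if 1 bp or more of it lay within an M6 peak and it touched the windows, 1 kb on either side of either annotated end, of at least 2 protein-coding genes of mm10. The autosomes (1 to 19), X and Y held 5735 W2 peaks, and 4618 of those were shared with M6 in this sense. Of those, 721 touched 2 or more genes, 2560 touched 1 gene and 1337 touched no gene end. The 721 regions overlapped 698 distinct M6 peaks out of 22570. They touched 1374 of 21887 protein-coding genes in 709 distinct neighbouring pairs, and 711 of them touched 2 genes and 10 touched 3.

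Genes that start close together on opposite strands and are read away from each other are called head-to-head or divergent pairs. Their starts can share 1 stretch of open DNA, often a CpG island, and such pairs are common among mammalian genes for DNA repair, the cell cycle, mitochondria and RNA processing. The histone genes are a second familiar case, with genes for the core histones facing each other across a short gap that holds CCAAT boxes, the sites bound by NF-Y. A start may also lie beside the tail of its neighbour, and genes may meet tail to tail.

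The start sequences of 5 such pairs show how closely opposing starts are packed in these regions. Npc2/Isca2 is among the strongest regions in M6. Mrps12/Sars2 and Acad8/Thyn1 are known divergent pairs, and Palb2/Dctn5 and H2bc7/H2ac7 are among those lowest in M6 relative to W2. Each sequence is from RefSeq (GRCm38.p6, the assembly that mm10 names), runs 5′ to 3′ on the strand of the named gene, and has that gene's start at base 251. The sequence table gives 1 start per gene, which need not be the outermost end used for the distance between 2 genes. Capitals mark matches, on either strand, to any of 10 short motifs whose letters are given with the motif counts. All 5 named genes are on the minus strand, and the intervals are chr12:84773063-84773362 (Npc2), chr7:28741772-28742071 (Mrps12), chr9:26999500-26999799 (Acad8), chr7:122132897-122133196 (Palb2) and chr13:23574158-23574457 (H2bc7).
Npc2 (Npc2/Isca2): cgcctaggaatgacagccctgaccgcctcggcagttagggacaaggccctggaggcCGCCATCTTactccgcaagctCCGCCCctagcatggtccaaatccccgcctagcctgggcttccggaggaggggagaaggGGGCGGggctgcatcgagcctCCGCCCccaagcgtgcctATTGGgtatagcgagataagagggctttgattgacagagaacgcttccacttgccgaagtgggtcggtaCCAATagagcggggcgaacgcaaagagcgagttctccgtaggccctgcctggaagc
Mrps12 (Mrps12/Sars2): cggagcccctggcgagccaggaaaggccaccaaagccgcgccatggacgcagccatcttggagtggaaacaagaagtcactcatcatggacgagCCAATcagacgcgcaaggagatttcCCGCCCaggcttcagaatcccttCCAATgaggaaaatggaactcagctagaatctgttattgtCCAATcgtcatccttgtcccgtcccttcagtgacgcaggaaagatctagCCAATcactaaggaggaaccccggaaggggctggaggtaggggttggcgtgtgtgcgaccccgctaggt
Acad8 (Acad8/Thyn1): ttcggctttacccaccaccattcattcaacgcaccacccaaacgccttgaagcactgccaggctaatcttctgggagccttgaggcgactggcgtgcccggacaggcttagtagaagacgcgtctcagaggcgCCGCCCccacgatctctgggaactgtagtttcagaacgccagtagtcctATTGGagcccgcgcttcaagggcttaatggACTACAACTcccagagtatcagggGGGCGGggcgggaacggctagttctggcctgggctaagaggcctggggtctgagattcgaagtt
Palb2 (Palb2/Dctn5): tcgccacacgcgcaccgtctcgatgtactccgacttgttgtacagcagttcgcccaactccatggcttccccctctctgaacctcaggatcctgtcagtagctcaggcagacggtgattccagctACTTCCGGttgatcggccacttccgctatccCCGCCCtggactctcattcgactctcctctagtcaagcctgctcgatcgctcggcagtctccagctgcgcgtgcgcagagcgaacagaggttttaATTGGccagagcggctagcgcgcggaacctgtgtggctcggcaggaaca
H2bc7 (H2bc7/H2ac7): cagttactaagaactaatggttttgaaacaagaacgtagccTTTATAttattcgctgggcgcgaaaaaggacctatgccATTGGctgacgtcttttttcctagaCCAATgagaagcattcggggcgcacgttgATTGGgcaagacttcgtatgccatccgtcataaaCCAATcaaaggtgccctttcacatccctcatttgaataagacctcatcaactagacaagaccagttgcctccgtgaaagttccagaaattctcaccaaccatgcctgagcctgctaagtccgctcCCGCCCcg

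In all 5 sequences the start of the partner gene lies inside the same 300 bases. The start of Isca2 is at base 93 of the Npc2 sequence, and the summits of both libraries are at base 262. In the Mrps12 sequence the start of Sars2 is at base 104, the M6 summit at base 175 and the W2 summit at base 168, among 4 CCAAT matches at bases 95, 143, 183 and 232. The start of Thyn1 is at base 123 of the Acad8 sequence, with the M6 summit at base 147 and the W2 summit at base 189. Of the 5, Palb2 had the summits farthest apart: the start of Dctn5 is at base 156, the M6 summit is at base 276 and the W2 summit at base 120, on either side of the paired starts. In the H2bc7 sequence the start of H2ac7 is at base 77, the M6 summit at base 146 and the W2 summit at base 135, and CCAAT matches stand at bases 80, 105, 134 and 168. Mrps12, Acad8 and H2bc7 thus had both summits between the opposing starts, whereas at Npc2 they lay just past the start of Npc2.

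Strand was known for both nearest genes at 578 of the 721 regions. Head-to-head pairs made up 452 of the 578 (78.2%, exact binomial 95% interval 74.6 to 81.5%). In 312 of them the gene bodies, taken to their outermost annotated ends, did not overlap. In 140 they did, as when 2 divergent genes start inside each other. At 113 regions (19.6%) a start lay beside the 3′ end of its neighbour, at 12 the starts were on the same strand, and at 1, Zfp296/Clasrp, the genes met tail to tail. At the 312 head-to-head pairs without overlap, the starts were a median of 130 bp apart (quartiles 61 and 244.5 bp).

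Neighbours whose starts lay close together held these regions more often than neighbours that included a 3′ end. In the annotation, 4810 pairs of protein-coding genes had ends at most 2 kb apart, and 709 of them (14.7%) had a shared peak at both genes. Of 1005 head-to-head pairs 437 did (43.5%, exact binomial interval 40.4 to 46.6%) and of 43 pairs with starts on the same strand 15 did (34.9%, with an interval that overlapped that of the head-to-head pairs), against 118 of 975 pairs with a start beside an end (12.1%, 10.1 to 14.3%) and 3 of 1106 tail-to-tail pairs (0.271%, 0.056 to 0.791%). An M6 peak at both genes, shared or not, was found at 737 of the head-to-head pairs (73.3%), 266 of the pairs with a start beside an end (27.3%) and 23 of the tail-to-tail pairs (2.08%). Up to 1 kb the share stayed high: of head-to-head pairs without overlap, 44.8% had a shared peak at 0 to 100 bp, 59.2% at 101 to 300 bp and 51.5% at 301 to 1000 bp. Beyond that, 6 of 64 pairs (9.38%, 3.52 to 19.3%) did. The windows themselves set part of this fall, since a peak must reach within 1 kb of both genes.

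**Figure D1:**
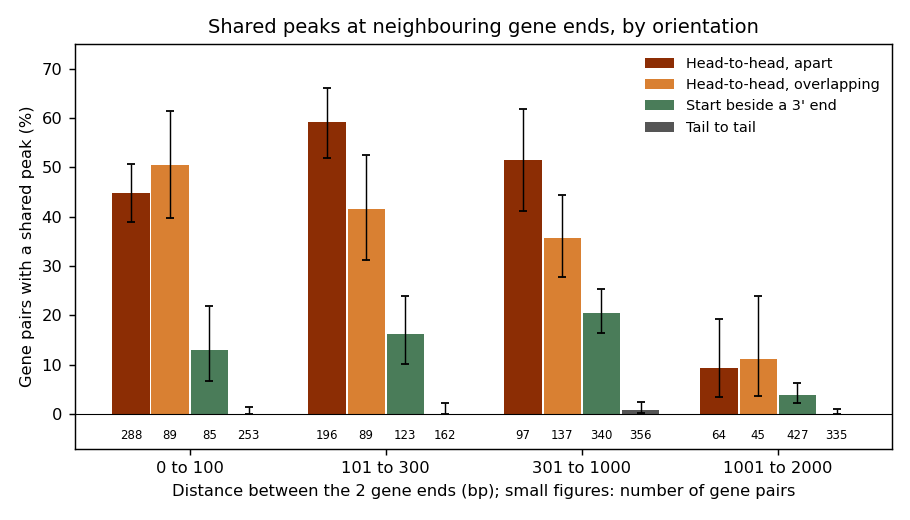
The percent of neighbouring gene pairs with a shared peak at both genes (vertical axis) is plotted by the distance between their ends in bp, for 4 orientations; small figures give the number of pairs and error bars are exact binomial 95% intervals. Head-to-head pairs stand highest in the first 3 distance classes, between 35.8% and 59.2%, and tail-to-tail pairs stay at or near 0.

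A near neighbour and CpG-rich sequence go together, so starts were also split by CpG content, the observed over expected CpG ratio of the 300-base start sequence. Of starts of head-to-head pairs within 1 kb, 852 of 1782 (47.8%) had a shared peak within 1 kb, against 1459 of 11785 starts with no other gene end within 2 kb (12.4%). At a ratio of 0.6 or more, the shares were 742 of 1486 paired starts (49.9%, 47.4 to 52.5%) and 1241 of 4743 isolated starts (26.2%, 24.9 to 27.4%). At a lower ratio they were 110 of 296 paired starts (37.2%) and 218 of 7042 isolated ones (3.10%). The paired starts were higher in both CpG classes. The window of a paired start also takes in a peak of its partner, and the part of this in the difference was not tested. Since 1 peak can count for both starts of a pair, paired starts are not separate units and their interval is too narrow.

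Summits mostly lay near the starts, though often not between their outermost annotated ends. Starts are taken here as those ends, which can differ from the starts of the sequences. At Acad8/Thyn1, with ends 71 bp apart, the M6 summit was 46.5 bp from their midpoint. It thus counts here as outside, although it lies between the starts of the sequences. At the 312 head-to-head pairs without overlap, the summit lay between the starts at 164 in M6 (52.6%) and 155 in W2 (49.7%). At the 140 overlapping head-to-head pairs it lay between them at 35 in M6 and likewise at 35 in W2. At pairs without overlap, its median distance from the midpoint was 63.25 bp in M6 and 72.75 bp in W2. The peak covered both starts at 266 pairs in M6 (85.3%, 80.8 to 89.0%) and 199 in W2 (63.8%, 58.2 to 69.1%). Where a start lay beside an end, the W2 summit was nearer to the start in 103 of 113 regions (91.2%), a median of 95 bp from the start and 587 bp from the end. At those pairs the open DNA was thus mostly at the start.

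**Figure D2:**
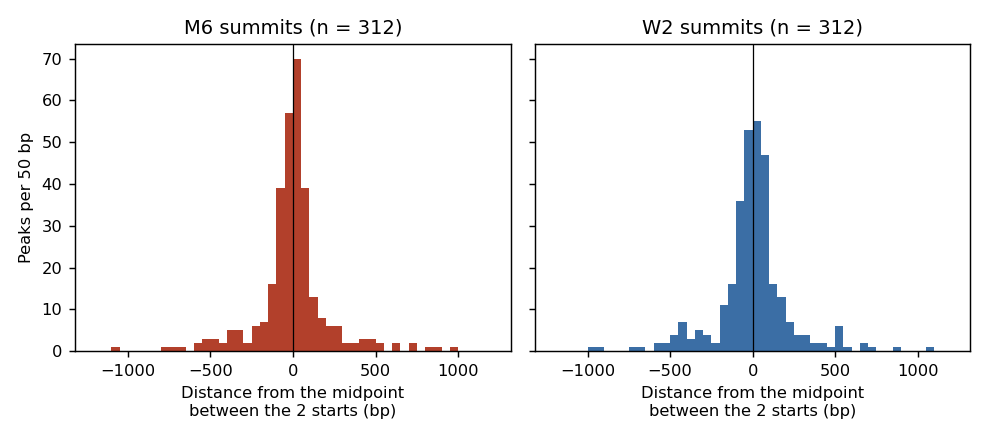
Numbers of summits per 50 bp are plotted by distance, in bp, from the midpoint between the outermost opposing starts at 312 head-to-head pairs, for M6 on the left and W2 on the right. Both distributions are highest near the midpoint, with a median distance of 63.25 bp in M6 and 72.75 bp in W2.

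In M6 the regions were wider and their summits mostly higher. The summit pileup counts the tags that cover the highest base of a peak and was recovered from the deposited fold and −log10 p. It had a median of 35 in M6 (quartiles 27 and 44) and 22 in W2 (19 and 27). The log2 ratio of M6 to W2, each pileup plus 1, had a median of 0.58 (quartiles 0.32 and 0.82). M6 was higher at 652 regions (90.4%, 88.0 to 92.5%), against a background of 85.8% of all 4618 shared peaks, equal at 14 and lower at 55 (7.63%). It reached at least 2 times W2 at 91 regions (12.6%, 10.3 to 15.3%), against 11.6% of all shared peaks. W2 reached 2 times M6 at 0 of 721 regions (interval up to 0.51%), against 0.13% of all shared peaks. The share at 2 times W2 hangs on the scale: it was 21.6% with pileups divided by each library's lowest background (20.2% of all shared peaks) and 1.11% with the authors' fold over local background (1.08% of all shared peaks). The median log2 ratio of the pileups over all shared peaks was 0.53, so the regions differed between the libraries much as shared peaks did in general. Since a peak had to be called in both lists to enter, these ratios describe the regions that were selected on those calls and support nothing further.

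Compared with shared peaks at 1 gene, the 2-gene regions differed little in height. Those had median pileups of 33 in M6 and 22 in W2, with a median log2 ratio of 0.56, and 12.6% reached at least 2 times W2. Shared peaks away from gene ends were lower in M6, at 28, against 20 in W2, with a median log2 ratio of 0.39. The lowest local background of any peak, read as relative depth, was 2.65 tags in M6 and 2.96 tags in W2, a ratio of 0.895. Dividing by it would move every log2 ratio by 0.16.

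Counting error limits what a single region shows. The exact 95% interval of the ratio of 2 pileups, given their sum, lay above 0 on the log2 scale at 243 of 721 regions (33.7%), the 91 at or over 2 times W2 among them. At the 55 regions with a lower M6 pileup, it lay below 0 at none. The same share over all shared peaks was not computed, so 33.7% is not shown to be particular to these regions. Their median log2 ratio of 0.58 was close to the 0.53 of all shared peaks.

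**Figure D3:**
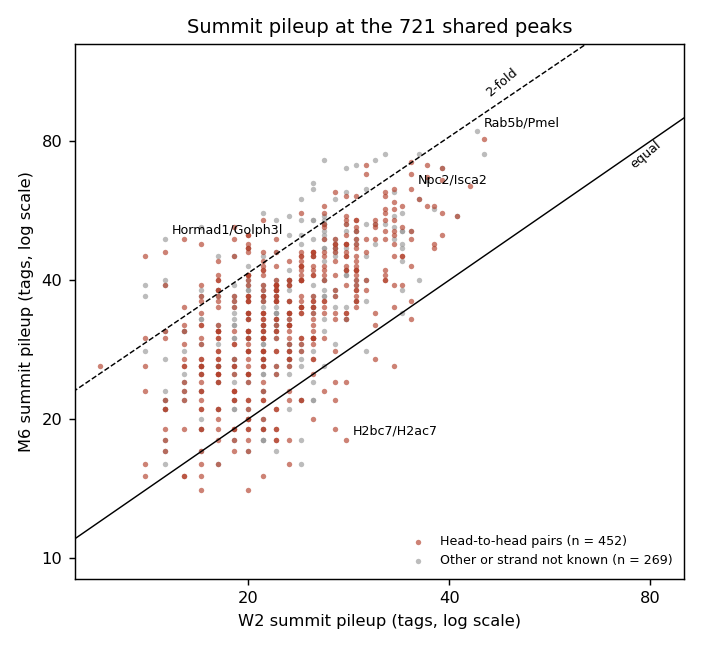
The M6 summit pileup is plotted against the W2 summit pileup, both in tags on log scales, for the 721 shared peaks; the solid line marks equal values and the dashed line an M6 value 2 times W2, each plus 1. Most points lie above the solid line (652 of 721), 91 lie on or above the dashed line, and the head-to-head pairs are spread through the whole cloud.

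The 2-gene regions were slightly wider than shared peaks at 1 gene. Their median width was 567 bp in M6 and 315 bp in W2, against 524 and 309 bp at shared peaks at 1 gene and 419 and 276 bp away from gene ends. M6 peaks were wider at 655 regions (90.9%), with a median width ratio of 1.60, and the W2 peak lay wholly inside the M6 peak at 484 (67.1%). A width of at least 800 bp was reached by 148 regions in M6 and 4 in W2. In 23 cases a single M6 peak of 625 to 1484 bp held 2 separate W2 peaks, whose summits were a median of 458 bp apart. Among these were Brca1/Nbr1, Cbx5/Hnrnpa1, which pairs a heterochromatin protein with a splicing regulator, and Hdlbp/Septin2 with the widest M6 peak. The summit moved little between the libraries, by a median of 48 bp (quartiles 20 and 100 bp).

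Nearly every W2 peak at a gene pair was also an M6 peak, but not the reverse. Of 740 W2 peaks touching 2 or more genes, 721 were shared (97.4%, 96.0 to 98.5%), against 2560 of 2720 at 1 gene (94.1%) and 1337 of 2275 at no gene end (58.8%). Of 1438 M6 peaks touching 2 or more genes, 709 overlapped a W2 peak (49.3%) and 729 did not. The overlapping ones had a median −log10 q of 14.7 and a median pileup of 34, and the others 6.48 and 22. M6 thus had about as many further peaks at gene pairs as shared ones, and they were the weaker ones. Further M6 peaks were not particular to gene pairs, since the whole M6 list held 22570 peaks against 5735 in W2. The exact share without a W2 peak over all M6 peaks was not counted. It must be larger than the 50.7% at gene pairs, since only 4618 W2 peaks overlapped any of the 22570. Few W2 peaks are likely to overlap several M6 peaks, as 3 of the 721 regions did. M6 peaks at gene pairs thus lacked a W2 peak less often than M6 peaks in general. The shared regions ranked higher in their own list in M6 than in W2, at a median percentile of 87.2 in M6 and 60.7 in W2, in lists of unequal length.

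The strongest regions in M6 were ranked by −log10 q. Rab5b/Pmel on chromosome 10 (M6 peak from 128695750 to 128696664) had a pileup of 84 in M6 and 44 in W2, with −log10 q of 54.4 in M6 and 22.1 in W2. Rab5b encodes an early endosome GTPase and Pmel a pigment granule protein. Zfp654/Cggbp1 on chromosome 16 (64851168 to 64852110), where Cggbp1 encodes a protein that binds CGG repeats, had 71 tags in M6 and 29 in W2. Npc2/Isca2 on chromosome 12 (84772850 to 84773382) had 63 tags in M6 and 35 in W2. Npc2 encodes a lysosomal cholesterol carrier and Isca2 a mitochondrial iron-sulfur cluster assembly protein. Hspa14/Cdnf on chromosome 2, a heat shock protein gene beside a neurotrophic factor gene, had 64 tags in M6 and 43 in W2, and its ratio interval included 0 on the log2 scale (−0.01 to 1.17). The other 6 of the 10 strongest were Ap2a1/Tsks, Hmbox1/Ints9, BC005624/Usp20, Mbd4/Ift122, Parp3/Rrp9 and Aamp/Pnkd, with 60 to 71 tags in M6 and 27 to 39 in W2. They were ranked on M6, which favours a higher M6 value, so that all 10 were higher in M6 is no finding.

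The highest M6 to W2 ratio was at a gene of meiosis and a Golgi gene. Hormad1/Golph3l on chromosome 3 (95588478 to 95589077) had 49 tags in M6 and 15 in W2, a log2 ratio of 1.64 (interval 0.85 to 2.65). Hormad1 encodes a protein of the meiotic chromosome axis and Golph3l a Golgi protein, and here the start of 1 gene lies beside the end of the other, 1052 bp away. Atp6v1d/Eif2s1 on chromosome 12 (78861422 to 78862276) joins a subunit of the proton pump of lysosomes with the alpha subunit of translation initiation factor eIF2, and had 45 tags in M6 and 14 in W2, a log2 ratio of 1.62 (0.79 to 2.67). Zfp513/Ppm1g had 52 tags in M6 and 17 in W2. Among the 10 regions of highest ratio were also Sugct/Mplkip, Brca1/Nbr1, LOC114841036/Fkbp2, Nudt6/Spata5, Gm41291/Mtdh and Tmem126b/Dlg2, with 39 to 73 tags in M6 and 14 to 26 in W2. All 10 were chosen on the ratio itself, so an interval above 0 at any of them is no finding. The pair Tmem126b/Dlg2 joins an assembly factor of respiratory complex I with a scaffold protein of synapses, 193 bp apart and head to head. LOC114841036/Fkbp2 had a local background of 9.28 tags in M6, high for that library (median 3.52), and over local background its log2 ratio was 0.71.

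Regions lower in M6 on the pileup scale were few and close to counting error. Over local background they were more, with 567 regions higher in M6 (78.6%, against 76.6% of all shared peaks) and 153 lower. The lowest ratio was at the histone pair H2bc7/H2ac7 on chromosome 13 (23574235 to 23574456), with 18 tags in M6 and 28 in W2, a log2 ratio of −0.61 (interval −1.58 to 0.27). Palb2/Dctn5 on chromosome 7 had 14 tags in M6 and 20 in W2, a log2 ratio of −0.49 (−1.61 to 0.54). Palb2 encodes the protein that links BRCA1 to BRCA2, and Dctn5 a dynactin subunit. Hnrnpa2b1/Cbx3 on chromosome 6, a widely studied open region between a splicing regulator gene and a heterochromatin protein gene, had 18 tags in M6 and 23 in W2, and Mrpl47/Ndufb5 had 26 in M6 and 33 in W2. The other 6 of the 10 lowest were LOC115488016/Prkch, BC055324/Mettl18, Adprm/Sco1, Iqch/Aagab, Ap4e1/Blvra and Eml3/Mta2, with 15 to 19 tags in M6 and 21 to 27 in W2. The interval included 0 at each of the 10.

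A list of 31 known neighbouring pairs, most of them divergent, was then looked up. Of these, 14 had a region, 12 had an M6 peak at both genes without a shared W2 peak, and 5 had none, Nbn/Osgin2 and Abcg5/Abcg8 among them, whose ends are over 2 kb apart in the annotation. Over all head-to-head pairs, 43.5% had a region and 73.3% an M6 peak at both genes. Brca1/Nbr1 on chromosome 11 joins a DNA repair gene and an autophagy receptor gene, 152 bp apart, and had 46 tags in M6 over 2 W2 peaks of 15 and 22 tags inside a single 1127 bp M6 peak (101551844 to 101552970). The M6 summit was 743 bp, and the W2 summits 295 and 679 bp, from the midpoint between the outermost starts. Atm/Npat on chromosome 9, the DNA damage kinase beside an activator of histone gene transcription, had 46 tags in M6 and 24 in W2. At both pairs the interval of the log2 ratio lay above 0.

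The other listed pairs ran from 2 times as many tags in M6 to fewer, with Hnrnpa2b1/Cbx3, given above, the lowest. Over local background that pair was lower still in M6, with a fold of 2.78 in M6 and 5.29 in W2. Its M6 peak was weak, with a −log10 q of 2.30. Pdcd10/Serpini1, an apoptosis-linked gene beside the neuroserpin gene, had 72 tags in M6 and 35 in W2, on a local background of 8.46 tags in M6 and 3.96 in W2, and over local background its log2 ratio of 1.02 became 0.09. Mcm4/Prkdc, a replicative helicase subunit beside the DNA-dependent protein kinase, had 47 tags in M6 and 26 in W2. Ppat/Paics, which encode enzymes of purine synthesis, also had 47 tags in M6, and 27 in W2. Mrps12/Sars2, a mitochondrial ribosomal protein beside the mitochondrial seryl-tRNA synthetase, had 49 tags in M6 and 31 in W2, with an interval of −0.02 to 1.36. Gart/Son, a purine synthesis gene beside a splicing cofactor gene, had 37 tags in M6 and 29 in W2. Trp53/Wrap53, where Wrap53 encodes a telomerase-associated protein, had 30 tags in M6 and 21 in W2, with a log2 ratio of 0.49 that became 0.09 over local background. Its summits were 1081 bp (M6) and 967 bp (W2) from the midpoint between the outermost starts, which are 98 bp apart, and so not between those. The start that the sequences give for Wrap53 is much nearer. With that start at base 251 of the Wrap53 sequence, the M6 summit is at base 282 and the W2 summit at base 168. Atp5j/Gabpa had 30 in M6 and 24 in W2. Acad8/Thyn1, with 35 tags in M6 and 33 in W2, and Psmb9/Tap1, the immunoproteasome and peptide transporter pair, with 15 in M6 and 16 in W2, were close to equal. Over local background the sign turned at Gart/Son (−0.16), Acad8/Thyn1 (−0.07) and Atp5j/Gabpa (−0.03).

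Listed pairs with an M6 peak alone included Hspd1/Hspe1, the mitochondrial chaperonin pair, with an M6 −log10 q of 5.28, Rps18/Vps52 with 8.31, Sdha/Ccdc127 with 8.81, Osgep/Apex1 with 7.96 and Polr2a/Slc35g3, a start beside an end, with 12.8. W2 pileups below 12 tags were outside the W2 list, so a missing W2 peak does not show that the region was closed.

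**Figure D4:**
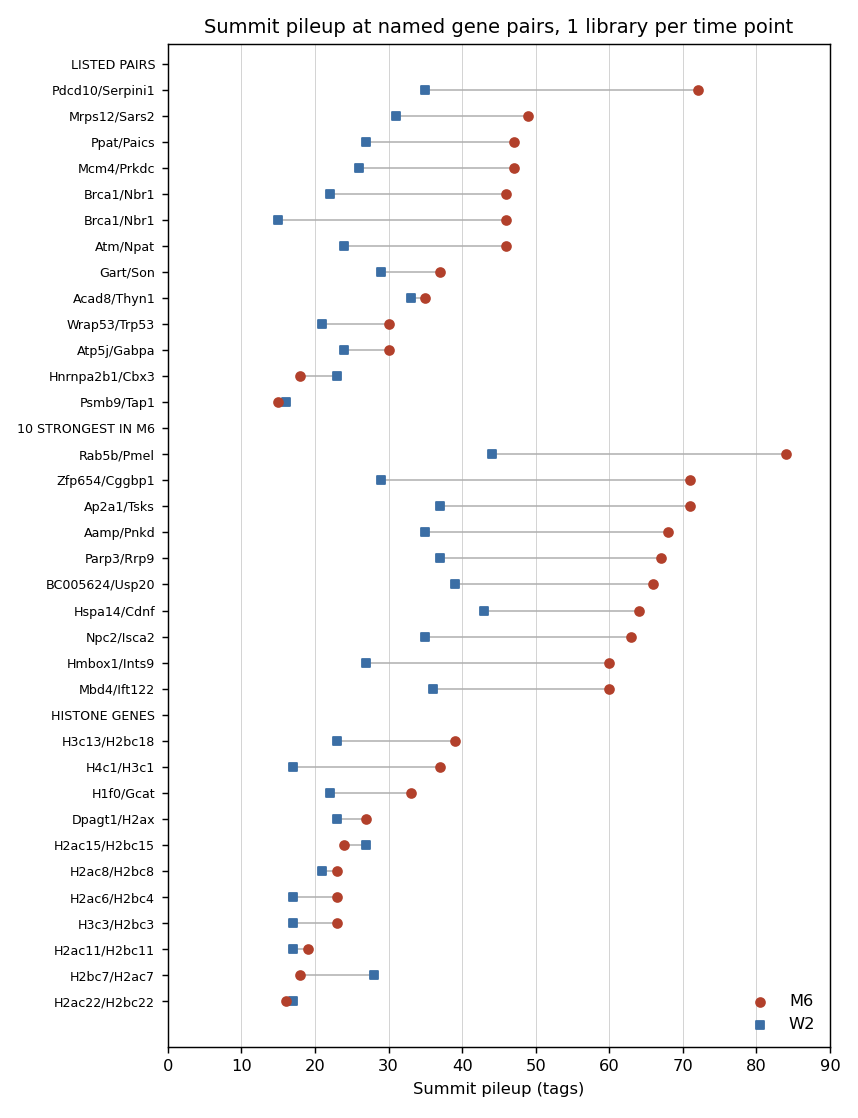
Summit pileup in tags (horizontal axis) is plotted for M6 (red circles) and W2 (blue squares) at listed gene pairs, the 10 strongest pairs in M6 and the histone gene pairs, with 1 library per time point. The strongest pairs, which were chosen on M6, run from 60 to 84 tags in M6 and from 27 to 44 in W2, and the histone pairs lie closer together.

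The genes at these regions were read against lists of gene families. Over all protein-coding genes, 6.28% were at a 2-gene shared peak, and of the 7048 genes with another gene end within 2 kb, 19.5% were. Of 47 DNA repair genes, 14 were (29.8%, exact binomial interval 17.3 to 44.9%), and of the 33 with such a near neighbour 42.4% were (25.5 to 60.8%). Among them were Chek2, Pms2, Xrcc1, Fancf, Palb2, Mre11a, Atm, Trp53, Brca1, Fancm, Xrcc3 and Prkdc. The median log2 ratio over their 16 regions was 0.81, against 0.53 over all shared peaks, and 5 of the 16 reached at least 2 times W2. Xrcc3/Zfyve21, whose Xrcc3 product acts in recombination, had 71 tags in M6 and 30 in W2, and Pms2/Aimp2, with a mismatch repair gene, had 52 in M6 and 26 in W2. Xrcc1/Pinlyp, with a single-strand break repair gene, was nearly equal, at 36 tags in M6 and 35 in W2, and Palb2 alone among the 14 was lower in M6.

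Cell cycle and replication genes held 10 of 48 (20.8%). Pcna/Cds2, with the sliding clamp of replication, had 48 tags in M6 and 29 in W2. Ccna2/Bbs7, with cyclin A2, had 44 tags in M6 and 26 in W2, and Mcm7/Ap4m1, with a helicase subunit, had 40 in M6 and 20 in W2. Pold1/Nr1h2, with the catalytic subunit of DNA polymerase delta, had 38 tags in M6 and 18 in W2. Aurka/Cstf1, with the mitotic kinase Aurora A, was the 1 list region lower in M6, at 17 tags in M6 and 20 in W2. Orc3, Orc6, Mcm4 and Cdc45 were also among the 10.

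Families that act in mitochondria and in RNA processing held shares of 17.6 to 18.9%. The mitochondrial ribosomal proteins had 14 of 77 genes at such a region (18.2%), with 12 of 14 regions higher in M6. Over all shared peaks 85.8% were higher in M6, which neither this count nor the next exceeds. The respiratory chain had 15 of 85 (17.6%), with 12 of 15 higher in M6, and a median log2 ratio of 0.40, against 0.53 over all shared peaks. Within it, Uqcrq/Gdf9, with a subunit of complex III, had 53 tags in M6 and 32 in W2, and Sdhd/Timm8b, with a subunit of complex II, had 21 in M6 and 15 in W2. RNA polymerase subunits and general transcription factors had 13 of 69 (18.8%), splicing factors 11 of 60 (18.3%) and tRNA synthetases 7 of 37 (18.9%). Snrpa, a U1 particle protein gene paired with BC024978, had 48 tags in M6 and 20 in W2. Polr3g/Mblac2, with an RNA polymerase III subunit, had 38 tags in M6 and 18 in W2. Counted only over genes with another gene end within 2 kb, where the background is 19.5%, the shares were 10 of 25 cell cycle genes, 36.8% of 19 tRNA synthetases, 36.7% of 30 splicing factors, 31.7% of 41 polymerase and transcription factor genes, 28.6% of 49 mitochondrial ribosomal proteins and 28.3% of 53 respiratory chain genes. Their exact binomial intervals included 19.5% except those of the cell cycle genes (21.1 to 61.3%) and the splicing factors (19.9 to 56.1%). No test of the lists was made.

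Translation initiation factors had 7 of 56 genes (12.5%), cytosolic ribosomal proteins 9 of 83 (10.8%), mediator subunits 3 of 28 (10.7%), proteasome subunits 5 of 48 (10.4%) and housekeeping genes 3 of 30 (10.0%). The housekeeping genes were Rpl13a, Snrpd3 and Eef2. Counted only over genes with a near neighbour, the shares were 24.14% for initiation factors, 21.95% for cytosolic ribosomal proteins and 15% for mediator subunits. Proteasome subunits stood at 20.83% and housekeeping genes at 20%. The exact binomial interval of each of these lists included the background of 19.5%. Zinc finger (Zfp) genes had the lowest share of the larger lists, with 17 of 394 (4.31%), and of the 79 with a near neighbour 21.5% were, against the 19.5% above.

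Genes that mark cell types were almost absent from these regions. Of 32 neuroendocrine genes only Celsr3, an atypical cadherin gene of neurons beside Slc26a6, was at one, the peak reaching the farther of the gene windows by 19 bp, with 24 tags in M6 and 19 in W2. No gene of the luminal (23), basal (11), leukocyte (15), endothelial (10) or fibroblast (10) lists was. Of the 32 neuroendocrine genes 3 had another gene end within 2 kb, as did 4 of the luminal and 4 of the basal genes. The lists thus offered few genes that could enter.

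Histone genes were the family in which both genes of a region most often came from the list, 9 of 11 regions. Of 71 histone genes, 20 were at such a region (28.2%, 18.1 to 40.1%), and of the 54 with a near neighbour 37.0% were (24.3 to 51.3%). H4c1/H3c1 on chromosome 13 had 37 tags in M6 and 17 in W2, a log2 ratio of 1.08 (interval 0.26 to 2.04). H3c13/H2bc18 on chromosome 3 had 39 tags in M6 and 23 in W2. The neighbouring pairs of histones 2A and 2B on chromosome 13 had lower ratios. H2ac15/H2bc15 had 24 tags in M6 and 27 in W2, and H2ac22/H2bc22 had 16 in M6 and 17 in W2. H2ac8/H2bc8 had 23 tags in M6 and 21 in W2, H2ac11/H2bc11 had 19 in M6 and 17 in W2 (−0.02 over local background on the log2 scale), and H2ac6/H2bc4, a pair without a strand in the table, had 23 in M6 and 17 in W2. The median log2 ratio over the 11 regions was 0.22, against 0.53 over all shared peaks. Histone genes are near-identical copies, and the sources used here do not say how reads mapping to several of them were treated, so these values are uncertain.

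The start sequences of the genes were CpG-rich. For 1033 genes with a start within 1 kb of a region and a sequence in the RefSeq table, the median observed over expected CpG ratio was 0.83, against 0.81 at 2020 genes of shared peaks at 1 gene, 0.29 at 10270 genes without a peak at either end and 0.58 over all 17492 sequences. Median GC content was 62.3%, against 63.0% at genes of shared peaks at 1 gene and 51.0% at genes without a peak. Composition thus set both kinds of shared gene-end peak apart from genes without peaks, and hardly apart from each other.

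Short motifs were counted as exact letter matches on both strands of the 300 bases, and none of the 10 contains another. They were CCAAT, bound by NF-Y, the GC box GGGCGG, bound by SP1 and relatives, CCGGAAGT for the ETS family, GCGCATGCG for NRF1, AAGATGGCG for YY1 and ACTACAANT for ZNF143. The letters of the AP-1 motif were TGANTCA, and those of the TATA motif TATAAA. The E-box of MYC and USF was searched as CACGTG. The last motif was the palindrome CTCGCGAG, bound by ZBTB33 and BANP. The GC box was in 73.9% of the start sequences of genes at 2-gene regions, against 78.5% at 1-gene peaks and 46.3% over all sequences. CCAAT was in 54.3%, against 56.3% at 1-gene peaks and 39.2% over all sequences. ETS was in 11.6% (exact interval 9.73 to 13.7%), against 9.21% (7.98 to 10.6%) at 1-gene peaks and 5.28% over all.

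The rarer promoter motifs ran in the same order as ETS. ZNF143 was in 5.81% of the 2-gene set, against 4.31% at 1-gene peaks and 2.13% over all sequences. NRF1 was in 4.94%, against 4.16% and 2.41%, and YY1 in 4.55%, against 3.32% and 1.92%. The palindrome was in 3.78% (2.70 to 5.13%), against 2.18% (1.59 to 2.91%) at 1-gene peaks and 1.31% over all. TATA and AP-1 were the 2 motifs rarer than over all sequences, TATA in 4.36% against 13.3% and AP-1 in 3.10% against 7.03%. The E-box was in 9.29%, between 11.8% at 1-gene peaks and 7.91% over all sequences. These are matches of letters and not sites shown to be bound, and base composition differs between the sets. The start sequences of close partners overlap, so the same match can be counted for both genes, as at Mrps12 and Sars2. The intervals of the 2-gene set treat such genes as separate and are too narrow.

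**Figure D5:**
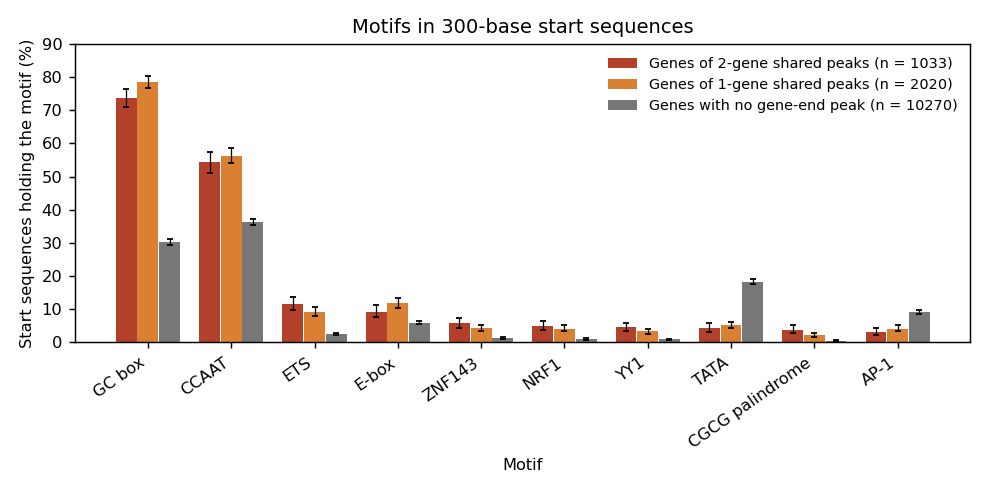
The percent of 300-base start sequences that hold each motif at least once (vertical axis) is plotted for genes of 2-gene shared peaks, genes of 1-gene shared peaks and genes with no gene-end peak, with exact binomial 95% intervals. Both shared sets exceed the genes without a peak for 8 of the 10 motifs, GC box and CCAAT most often of all at 73.9% and 54.3% of the 2-gene set, and lie below them for TATA and AP-1. Start sequences of close partners overlap, so the intervals of the 2-gene set are too narrow.

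Regions with CCAAT in a start sequence were somewhat higher than those without. The 413 regions with a match had median pileups of 37 in M6 and 23 in W2 and a median log2 ratio of 0.61, and the 243 without had 31 in M6, 21 in W2 and a ratio of 0.51. A higher median ratio was not particular to CCAAT. It was 0.585 with and 0.470 without a GC box, 0.652 and 0.567 for the palindrome, and 0.641 and 0.563 for the E-box. With ZNF143 or AP-1 it was slightly higher, and with ETS, NRF1, YY1 or TATA it was lower than without. These medians describe regions that share libraries and composition.

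Few of the regions had a long non-coding RNA gene end as well. Of the 721, 28 touched the window of an annotated lncRNA gene (3.88%, 2.60 to 5.56%), against 387 of 2560 shared peaks at 1 gene (15.1%, 13.8 to 16.6%) and 153 of 1337 away from protein-coding gene ends (11.4%). By chromosome, 89 of the 370 shared peaks on chromosome 7 were 2-gene regions, 60 of 333 on chromosome 2, and 4 of 128 on chromosome 18. Chromosome 18 held 457 of the 4810 neighbouring pairs, of which 4 (0.875%) had a region. No strand or start sequence was at hand for its genes. They are thus absent from the orientation classes and from the CpG and motif shares.

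Regions near the limits of the rule are given here as they stood. The 5 with the smallest overlap had 15 to 19 tags in M6 and 15 to 20 in W2, all under the lower quartile of 27 tags in M6. The smallest overlap between the lists was 79 bp, at Arf3/LOC115488470, with 17 tags in M6 and 20 in W2, and the nearest W2 peak left out, at Shld2/Glud1, had 19 tags in W2 and ended 27 bp from an M6 peak. The window of a second gene was reached by 1 bp at Cfap298/Synj1, with 29 tags in M6 and 27 in W2, and by 8 bp at Myd88/Acaa1a, with 36 in M6 and 24 in W2. It was missed by 8 bp at Pa2g4/Erbb3, with 45 tags in M6 and 32 in W2, and by 13 bp at Icam4/Icam5, with 27 in M6 and 25 in W2.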

How the data were processed

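ATAC-seq peaks of 1 M6 and 1 W2 library were analysed. The tools named, per the submitters' processing notes, are deepTools, SAMtools 1.4, Bowtie2 and Trim Galore 0.5.0, with mm10 as the build. Peaks were deposited per library. Not given in the sources used here are the caller, its thresholds, the treatment of duplicate or multiply mapped reads and any transposase shift. For each peak the authors deposited a fold, a linear ratio of summit over local background, with −log10 p and −log10 q values from their caller. The deposited score, about 10 times the −log10 q, was not used. No read depth is given. The lists held 22594 peaks for M6 and 5765 for W2, of which 24 and 30 on other sequences were left out.

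The whole-number summit pileup and the local background were recovered from each peak's fold and p, with the fold read as (pileup + 1)/(background + 1) and p as a Poisson upper tail. A whole number was found within 0.001 of the deposited −log10 p for 100% of peaks in both libraries, and the lowest pileup was 10 in M6 and 12 in W2. The step was tested on simulated data. Ratios are log2 of M6 over W2, each pileup plus 1, with the M6 peak of highest −log10 q where a region overlapped more than 1. Shares carry exact (Clopper-Pearson) binomial 95% intervals. Gene ends came from a RefSeq table of GRCm38.p6, and strand and start sequences from a table with 17492 of 21887 genes, of which 1201 were among the 1374 genes at these regions. None of the 17492 is on chromosome 18. Of those 1374 genes, 56 are predicted models. Orientation was taken from the closest ends of the genes touched. The genes named are the 10 regions of highest M6 −log10 q, the 10 of highest and the 10 of lowest ratio, the listed pairs, and members of 20 gene lists. The regions, lists, pairs and motifs were chosen with earlier results of these data known. Other windows, overlaps, thresholds, scalings and gene sets were tried. Analyses used Python 3.11.15, pandas 2.3.3, NumPy 2.4.6, SciPy 1.17.1 and matplotlib 3.10.9. Some regions that meet these rules are not reported here.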

Additional observations from a re-analysis of the deposited data

Results flagged for a closer look

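One region stood on a raised background in data that the comparisons do not use, the local background around each peak. At Ubxn6/Hdgfl2 on chromosome 17, head-to-head genes with a pileup of 81 in M6 and 45 in W2, the local background was 11.4 tags in M6 and 6.00 tags in W2. The M6 background was 3.24 times the median of the M6 list. Over local background the log2 ratio of M6 to W2 there was 0.01.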

How the results depend on the processing

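Of the main results recomputed under other settings, 47 values stayed within their interval (counts within 1.5 times) and 15 did not, 1 of them with a change of sign. With windows of 500 bp, 84.3% of regions of known strand were head to head, and with 2 kb 69.1%. With gene starts in place of both ends there were 472 regions, 96.0% of them head to head. With equal numbers of the strongest peaks (5735) the median log2 ratio was 0.73, 17.7% reached 2 times W2, and the median exceeded that of 1-gene peaks by 0.048 (0.0255 under the settings reported). Divided by the background floor, the median was 0.74 and 21.6% reached 2 times W2, against 20.2% of all shared peaks. Over local background the median was 0.26 and 1.11% reached 2 times W2, and the difference from 1-gene peaks was −0.0198. At 1.5-fold the share was 50.5%, against 44.9% of all shared peaks. With starts inside the W2 peak, CCAAT was in 59.5% and the GC box in 76.7% of sequences. Over local background the sign turned at 6 of 66 named regions, at each of which the counting interval included 0: Acad8/Thyn1 (−0.07), Atp5j/Gabpa (−0.03), Dpagt1/H2ax (−0.21), Gart/Son (−0.16), H2ac11/H2bc11 (−0.02) and Mtf1/1110065P20Rik/Yrdc (−0.07). Their counting intervals held these values, and 5 other named values left theirs, all over local background. No paired analysis was possible because each time point had 1 library.

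Each pileup is a small count from 1 library, regions below 10 tags in M6 or 12 in W2 are outside the lists, and read depth is unknown, so differences between the time points cannot be told apart from differences between libraries.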

Other observations

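The 10 regions that touch 3 genes ran from 16 tags in M6 and 18 in W2 at Hykk/AY074887/Psma4 to 46 in M6 and 27 in W2 at Psme3ip1/LOC115486880/Rspry1. At Atf5/Nup62/Il4i1b, which holds a stress response factor and a nuclear pore protein, M6 had 28 tags and W2 30. At Cmc4/Mtcp1/Brcc3 on chromosome X, with a deubiquitinase of the DNA damage response, M6 had 24 tags and W2 18. At genes of the 2-gene regions, 54.3% of start sequences held CCAAT and 73.9% the GC box, with a median CpG ratio of 0.83. At genes of head-to-head pairs within 1 kb that had no peak at either end, 33.3% held CCAAT and 51.9% the GC box, with a median CpG ratio of 0.76.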
